A study of Homo sapiens with 16 samples.

Results

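Cells in which a hairpin RNA against their oncogenic driver had been induced for 53 h were compared with the same cells at 36 h. The driver is EWS-FLI1, a fusion of EWSR1 and FLI1 that acts as an aberrant transcription factor in Ewing sarcoma, and the cells are A673, an established Ewing sarcoma line. One clone of that line, Asp14, was used throughout, which carries a hairpin RNA against the fusion under the control of doxycycline, kept under Zeocin and Blasticidin selection. The arrays are those labelled 53 h (n = 2) and 36 h (n = 3) of doxycycline at 1 ug/ml, 5 of the 16 arrays of the series, and the 3 arrays at 18 h enter where the step from 36 h onwards is set against the one before it. Both times were after doxycycline, so no untreated array enters the difference between them. Time in culture and time of knockdown cannot be told apart. The replicates are numbered, but the labels do not state whether each was a culture of its own. The spread behind the p-values is that between arrays of the same time over all 16 arrays, untreated ones included, and may be technical.

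EWS-FLI1 both activates and represses genes, and it holds the cells in proliferation while their mesenchymal programme is low. Genes of the cell cycle have different regulators. E2F factors drive those of DNA replication, and the MuvB complex with B-MYB or FOXM1 drives those of mitosis, later in the cycle. Immediate early genes such as the AP-1 factors, by contrast, respond within minutes to growth factors, adhesion and stress.

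The upper quartile of the arrays was 8.16 and 8.13 on the log2 scale at 53 h, against 8.11, 8.15 and 8.11 at 36 h. Replicate 1 at 36 h stood apart from the other arrays of its time. The SD of its difference from replicates 2 and 3, over the genes tested, was 0.528 and 0.525, whereas replicates 2 and 3 differed from each other by 0.186 and both 53 h arrays by 0.285. Replicate 1 stood apart in the same way at 18 h, by 0.501 and 0.5, where replicates 2 and 3 differed by 0.164. At 0 h replicate 1 differed from replicates 2 and 3 by 0.419 and 0.415, and they differed from each other by 0.176. Replicate 4, which exists at 0 h only, also stood apart, by 0.456, 0.37 and 0.368 from replicates 1, 2 and 3. As a sign of RNA quality, the ACTB probe sets at the 3' end exceeded those at the 5' end by 2.34 and 1.83 (log2) at 53 h and 2.21, 2.45 and 2.09 at 36 h. Beyond a fit with this difference as a covariate, given with the other settings at the end, the part of RNA quality was not tested. Of 11 blood cell markers on the array, all were below log2 4 on these 5 arrays, as were 12 of 13 epithelial markers, all but KRT18, and 7 of 11 endothelial ones, PECAM1, CDH5 and VWF among them. The other 4 endothelial markers were KDR, FLT1, EGFL7 and EMCN, of which EMCN read 11.21 and 11.41 at 53 h and 10.44, 10.87 and 11.07 at 36 h. The Ewing sarcoma marker CD99 read 13.52 and 13.50 at 53 h and 13.84, 13.67 and 13.69 at 36 h, and NKX2-2 read 9.07 and 9.35 at 53 h and 9.30, 9.05 and 9.05 at 36 h. The Ewing sarcoma marker STEAP1 read 9 and 8.81 at 53 h and 9.55, 9.23 and 9.38 at 36 h. CD99, STEAP1 and PRKCB were lower at 53 h without overlap, as were 26.2% of all genes tested. Among them PRKCB alone was called, and it is described among the activated targets. FLI1, the target of the hairpin, read 6.90 and 6.69 at 53 h, against 6.34, 6.48 and 6.41 at 36 h, a log2 difference of 0.39 ± 0.17 (SE) that missed the threshold (limma adjusted p = 0.169). EWSR1 differed by -0.15 ± 0.11 (limma adjusted p = 0.419).

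Of 7304 genes tested, 920 (12.6%) passed an adjusted p of 0.05 in limma, a linear model over all 16 arrays with 1 mean per time. At 53 h, 392 genes (5.37%) were higher and 528 (7.23%) lower than at 36 h, and in 334 of the 920 the log2 difference was 1 or more in size, 220 higher and 114 lower. The arrays did not overlap between the times for 1261 genes that were higher at 53 h (17.3%) and 1911 that were lower (26.2%). The count of calls rested on single arrays: it was 597 without replicate 3 at 36 h, 552 without replicate 1 at 53 h and 321 without replicate 2 at 53 h. The calls of 238 genes, 137 higher and 101 lower, held without any 1 of the 5 arrays. The plot of change against level shows that rises reached further than falls and that they were widest among genes dim at 36 h. Genes dim at 36 h have little room to fall on the array, so the plot cannot compare rises with falls among them.

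**Figure D1:**
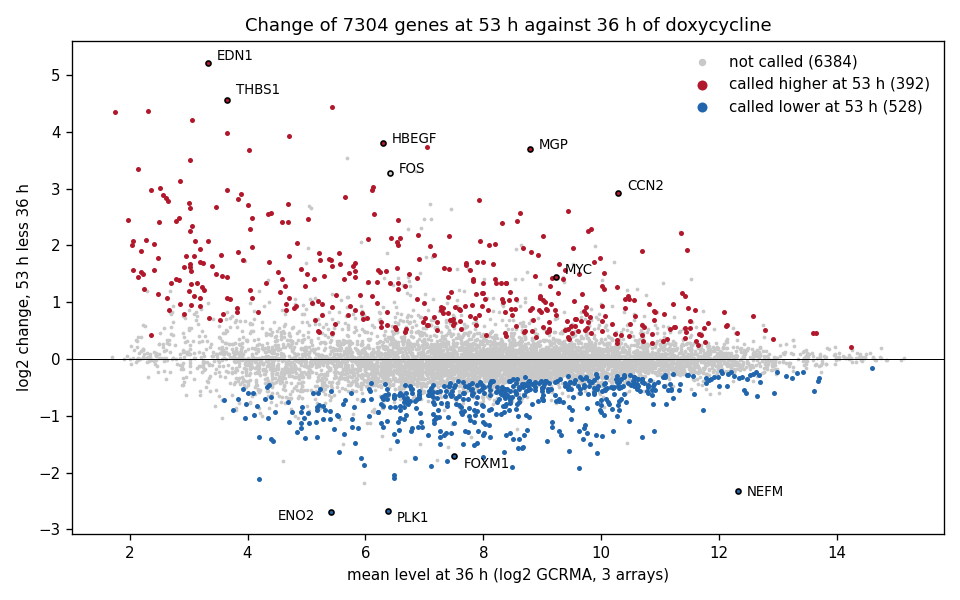
Each point is 1 of the 7304 genes tested, with its mean level at 36 h (log2 GCRMA, 3 arrays) on the horizontal axis and its log2 change, 53 h less 36 h, on the vertical axis. The 392 genes called higher at 53 h are red and the 528 called lower are blue, and EDN1, at 5.21, has the highest change.

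Genes of mitosis fell together. Over 3 lists of mitotic genes, 73 of 92 tested members (79.3%) were lower at 53 h than at 36 h, beside 7.23% of all genes tested, 1 was higher, and the median log2 change was -1.06, beside -0.05 over all genes. In bulk RNA, fewer cells in mitosis and less RNA per cell cannot be told apart. PTTG1, or securin, which holds back sister chromatid separation, read 9.85 and 9.41 at 53 h, against 10.84, 10.83 and 11 at 36 h, a fall of 1.26 ± 0.11 on the log2 scale (SE, limma adjusted p = 7.91e-06). Both 53 h arrays lay below all 3 at 36 h. FOXM1, a transcription factor of the mitotic genes themselves, read 5.68 and 5.93 at 53 h and 7.22, 7.53 and 7.79 at 36 h. It fell by 1.71 ± 0.16 on the log2 scale, which is 3.26-fold (limma adjusted p = 1.65e-05). PLK1, the kinase that drives entry into mitosis, had the largest fall of any mitotic gene tested. It read 4.01 and 3.41 at 53 h, at the edge of what the array resolves, and 5.95, 6.55 and 6.66 at 36 h, a fall of 2.67 ± 0.29 on the log2 scale (limma adjusted p = 7.26e-05). BORA, which activates PLK1 through Aurora A, fell by 1.86 ± 0.26 on the log2 scale, and TPX2, which activates Aurora A on the spindle, by 1.40 ± 0.14.

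Promoters of 4 of the mitotic genes are printed to show where the letters of 2 sites known from mitotic promoters occur, or do not: TTTGAA, the core of the cell cycle homology region to which MuvB binds, and CCAAT, the box bound by NF-Y. They are the 4 mitotic genes with the smallest adjusted p that could be printed from the RefSeq promoter table (GRCh38.p14), and each runs from 250 bases before the start of the gene to 50 after it. Capitals mark matches to either motif on either strand and to TTTCGCG or TTTGGCG or TTTCCCG, letters of E2F type, of which these 4 hold none.
PTTG1 (chr5:160421605-160421904, plus strand): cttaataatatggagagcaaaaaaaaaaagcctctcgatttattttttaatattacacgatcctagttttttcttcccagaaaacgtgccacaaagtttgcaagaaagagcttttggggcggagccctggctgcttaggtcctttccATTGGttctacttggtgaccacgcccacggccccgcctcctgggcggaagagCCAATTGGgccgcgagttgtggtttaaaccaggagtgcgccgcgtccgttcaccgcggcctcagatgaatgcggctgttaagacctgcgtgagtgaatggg
PLK1 (chr16:23678639-23678938, plus strand): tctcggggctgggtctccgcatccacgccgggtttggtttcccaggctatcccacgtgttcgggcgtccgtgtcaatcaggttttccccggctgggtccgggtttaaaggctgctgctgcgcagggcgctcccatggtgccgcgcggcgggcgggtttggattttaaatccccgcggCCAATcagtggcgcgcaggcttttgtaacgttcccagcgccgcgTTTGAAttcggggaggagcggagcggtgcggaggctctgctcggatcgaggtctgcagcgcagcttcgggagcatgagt
NEK2 (chr1:211675572-211675871, minus strand): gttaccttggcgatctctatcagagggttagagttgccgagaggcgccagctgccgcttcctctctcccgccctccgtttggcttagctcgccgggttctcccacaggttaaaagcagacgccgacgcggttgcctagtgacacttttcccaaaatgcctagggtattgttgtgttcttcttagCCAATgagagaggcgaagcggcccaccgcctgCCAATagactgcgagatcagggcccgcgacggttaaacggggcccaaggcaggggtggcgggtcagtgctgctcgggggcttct
CDC25B (chr20:3786701-3787000, plus strand): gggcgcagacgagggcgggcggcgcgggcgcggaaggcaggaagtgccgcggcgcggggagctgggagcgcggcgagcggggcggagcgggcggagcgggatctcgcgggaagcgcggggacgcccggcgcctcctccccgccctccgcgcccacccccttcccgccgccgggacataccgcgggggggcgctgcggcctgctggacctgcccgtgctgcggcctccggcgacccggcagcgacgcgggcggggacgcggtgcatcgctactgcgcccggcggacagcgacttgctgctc

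PLK1 holds CCAAT 73 bases and TTTGAA 29 bases before its start. PTTG1 and NEK2 hold CCAAT alone, 3 times and 2 times, and 2 of the matches in PTTG1 overlap on opposite strands. CDC25B, the phosphatase that activates mitotic CDK1, holds neither. NEK2, a kinase of the centrosome, fell by 1.57 ± 0.18 on the log2 scale and CDC25B by 0.98 ± 0.11 (limma adjusted p = 0.000116 for each). TTTGAA was thus in the window of 1 of the 4 genes printed, all of which fell. Of the 92 mitotic genes tested, 78 were in the promoter table. TTTGAA was in 62.8% of them, beside 9.97% of the promoters of all tested genes and 15.4% of the 27305 promoters of the table. CCAAT was in 67.9%, beside 38.3% and 35.7%. At least 1 of the E2F-type letters was in 15.4% of mitotic promoters, beside 12.4% of those of tested genes and 7.28% of the table. Of 43 promoters of replication genes, 48.8% held E2F-type letters, 53.5% CCAAT and 2.33% TTTGAA. A match is a description of the letters and shows no binding.

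By role, the falls ran through entry into mitosis, the kinetochore and the spindle. Of 38 kinases and regulators of mitotic entry, 32 fell and WEE1, which restrains CDK1, rose. WEE1 read 9.42 and 9.34 at 53 h and 8.43, 8.45 and 8.07 at 36 h, a rise of 1.06 ± 0.17 on the log2 scale (limma adjusted p = 0.00139). The cyclins CCNB1 and CCNB2 fell by 1.37 ± 0.20 and 1.09 ± 0.15 on the log2 scale, CDC20, which starts anaphase, by 1.49 ± 0.22, and the checkpoint kinase BUB1 by 1.55 ± 0.22, these 4 and WEE1 named after their values were seen. The average over all 5 probe sets of BUB1 was -0.58. Of 25 kinetochore and centromere genes, 16 fell. OIP5 and CENPM, which belong to the centromere, fell by 1.31 ± 0.16 and 1.30 ± 0.16 on the log2 scale, and BIRC5, the survivin of the chromosomal passenger complex, by 1.27 ± 0.16. CENPE, a kinetochore motor, read 6.08 and 5.07 at 53 h and 7.02, 7.58 and 7.53 at 36 h, and its fall of 1.80 ± 0.35 lost the call without replicate 2 at 53 h (-1.30, limma adjusted p = 0.0915). Of 29 motors, condensin subunits and cytokinesis genes, 25 fell, among them the chromosome motor KIF22 by 1.25 ± 0.16, the spindle protein TACC3 by 1.48 ± 0.19 and the condensin subunit NCAPD2 by 1.41 ± 0.19. Without replicate 2 at 53 h the falls called over the 3 lists were 41 in place of 73, with 7 for the kinetochore and 12 for the motors. Without any 1 of the 36 h arrays they were between 63 and 77, and in a fit of the 5 arrays alone 46. With probe sets open to cross-hybridisation left out they were 40, but genes with no other probe set, such as FOXM1, PTTG1 and TPX2, are absent from that fit. The calls of 18, 5 and 12 genes of the 3 lists held without any 1 of the 5 arrays. The plot of list members shows the 3 mitotic lists with their medians near or below -0.7 and almost no member above 0.

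**Figure D2:**
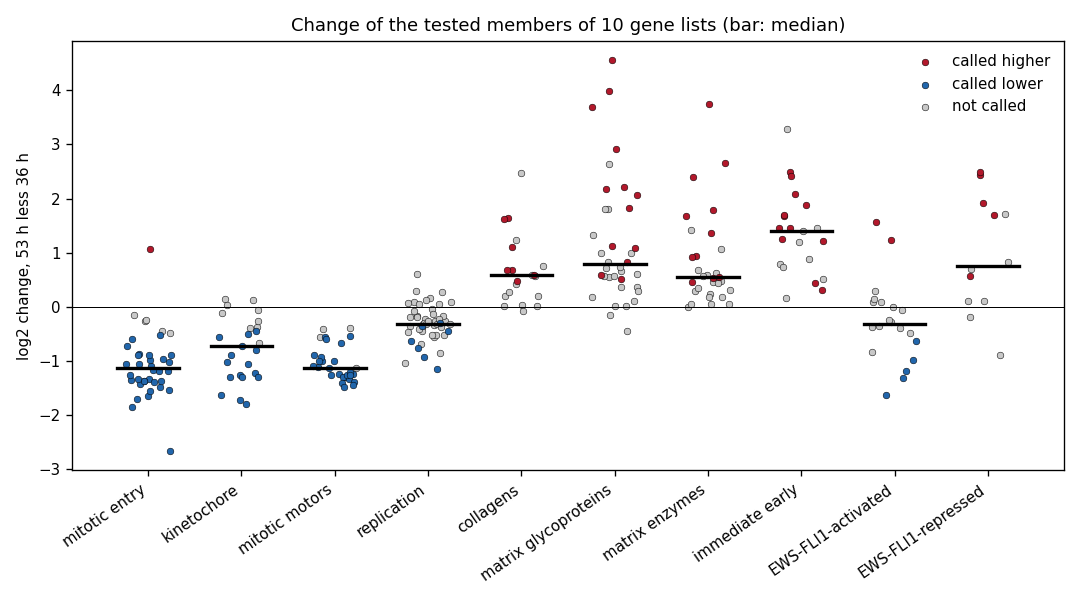
Each point is 1 tested member of 1 of 10 gene lists, with the log2 change, 53 h less 36 h, on the vertical axis, a bar at the median, red for genes called higher and blue for those called lower at 53 h. Medians are -1.13 for mitotic entry and for mitotic motors, -0.72 for the kinetochore, -0.32 for replication and 1.39 for immediate early genes.

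Genes of DNA replication moved less. Of 49 licensing and fork genes, 7 were lower at 53 h than at 36 h (14.3%, beside 7.23% of all genes tested), none was higher, and the median log2 change was -0.32. TIMELESS, which protects the replication fork, read 6.99 and 6.87 at 53 h and 7.88, 8.09 and 8.31 at 36 h and fell by 1.16 ± 0.15 on the log2 scale (limma adjusted p = 0.000207), though its second probe set brought the average to -0.58. Its call was the 1 of the 7 that held without any 1 of the arrays. ORC3, of the origin recognition complex, fell by 0.63 ± 0.12 and the primase subunit PRIM1 by 0.77 ± 0.16, and both calls were lost without replicate 2 at 53 h (limma adjusted p = 0.0581 and 0.104). The helicase subunits MCM2, MCM3, MCM4, MCM5, MCM6 and MCM7, named after their values were seen, had log2 differences between -0.19 and 0.28, none past the threshold. The count of 7 was 11 without replicate 1 at 36 h, 4 without replicate 3 at 36 h and 3 without replicate 2 at 53 h. Of 21 nucleotide synthesis genes 7 fell (33.3%), TYMS, the thymidylate synthase, with the smallest adjusted p among them, by 0.54 ± 0.11 on the log2 scale, but no call of these 7 held without any 1 of the arrays, and none remained without replicate 2 at 53 h, where TYMS had an adjusted p of 0.0842. That list's count was 4 without replicate 2 at 36 h, 2 without replicate 3 at 36 h and 4 without replicate 1 at 53 h.

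The step to 53 h was also tested against the step before it, 36 h less 18 h. The log2 step was higher, that is less negative or more positive, than the one before for 557 genes (7.63% of 7304) and lower for 428 (5.86%). The contrast uses the 36 h arrays in both steps, with double weight. Among the 49 replication genes, 35 had a higher step to 53 h, with a median difference of 1.54 (log2), beside 11 of 25 kinetochore genes with a median of 0.74, 4 of 29 mitotic motors with 0.43 and 7 of 38 mitotic entry genes with 0.20. MCM2 had group means of 10.53 after 18 h, 7.87 after 36 h and 7.96 after 53 h, so that its 2 steps differed by 2.75 (limma adjusted p = 0.000205). CCNB1 had means of 12.03 after 18 h, 10.69 after 36 h and 9.32 after 53 h, and its steps differed by -0.03 (limma adjusted p = 0.964). No test of the difference between the lists was made. Without replicate 2 at 36 h the count of replication genes was 23 in place of 35, and without any 1 of the other arrays at 18 h, 36 h or 53 h it was between 28 and 41.

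The E2F factors and their partners, to which the title of the series points, gave no call in 10 tested members. E2F1 read 5.04 and 5.02 at 53 h and 5.05, 4.82 and 5.03 at 36 h, a log2 difference of 0.06 ± 0.16, and E2F3 differed by 0.16 ± 0.19. A dimmer probe set of E2F3 averaged 7.39 at 53 h and 6.77 at 36 h, a difference of 0.62. RBL1, or p107, a pocket protein that binds E2Fs, read 3.91 and 3.71 at 53 h and 5.00, 4.25 and 4.42 at 36 h, without overlap. Both values at 53 h were below log2 4, so that it was at least 1.47-fold lower there, and the fit missed the threshold (limma adjusted p = 0.0952). RB1 differed by -0.34 ± 0.16 (limma adjusted p = 0.199). The remaining members, E2F5, E2F6, E2F8, TFDP1, TFDP2 and RBL2, had differences between -0.42 and 0.20. The step to 53 h was higher than the step before it for 3 of the 10, beside 7.63% of all genes tested. These were E2F1 by 1.30 (limma adjusted p = 0.00681), E2F8 by 2.30 (0.0112) and TFDP1 by 1.05 (0.0363). E2F8 averaged 4.41 at 36 h and 4.18 at 53 h, near log2 4, so that little room was left for a further fall. Of 12 G1 cyclins, their kinases and inhibitors none was called. CDK6 was read at 5.10 and 6.35 at 53 h and 5.03, 4.77 and 4.99 at 36 h (0.79 ± 0.26, limma adjusted p = 0.062), and without replicate 1 at 53 h it passed (1.42, limma adjusted p = 0.00052).

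The 12 highest rises reached 5.21 on the log2 scale, and 5 of these genes were below log2 4 on all arrays at 36 h. EDN1, which encodes the vasoactive peptide endothelin-1, read 8.63 and 8.46 at 53 h and 2.88, 3.37 and 3.75 at 36 h. All its values at 36 h were below log2 4, so its rise was at least 23.3-fold (log2 change 5.21 ± 0.40, limma adjusted p = 2.81e-06). Such bounds put log2 4 in place of the dim values and leave out the spread of the brighter arrays. THBS1, thrombospondin 1, a matrix glycoprotein that activates latent TGF-beta, read 8.10 and 8.33 at 53 h and 3.17, 3.82 and 3.99 at 36 h, at least 18.6-fold higher. Its other probe sets were dimmer, and the average over all 5 gave a log2 change of 1.81. The cytokines of the TNF family TNFSF18 and TNFSF15 were at least 6.40-fold and 9.50-fold higher, and the hyaluronidase CEMIP at least 4.31-fold. TNFSF18 read 6.12 and 7.24 at 53 h and 2.28, 2.19 and 2.45 at 36 h. EPAS1, the hypoxia-inducible factor HIF-2 alpha, read 9.98 and 9.78 at 53 h and 5.31, 5.59 and 5.42 at 36 h and rose by 4.44 ± 0.66 on the log2 scale, though its dimmer probe set changed by 0.05.

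HBEGF, a membrane-bound ligand of the EGF receptor, was measured above background on all arrays. It read 10.11 and 10.09 at 53 h and 5.87, 6.39 and 6.64 at 36 h, a 13.9-fold rise (limma adjusted p = 0.000572), a second probe set changed by 4.28 (log2), and the remaining one, near background, by 0.01. CCL2, the monocyte chemokine, rose by 3.92 ± 0.43 on the log2 scale, MGP, the matrix Gla protein that restrains calcification, by 3.70 ± 0.33, and PAMR1, a secreted protein of protease-like fold, by 3.74 ± 0.39. FGL2, a fibrinogen-like secreted protein, read 7.73 and 7.54 at 53 h, against 5.34, 2.79 and 2.84 at 36 h, where replicate 1 was above the others. CAPN6, a calpain that binds microtubules, read 7.87 and 7.54 at 53 h and 3.77, 3.16 and 5.13 at 36 h. All 12 rises held their call without any 1 of the arrays. The plot of named genes by array shows them with no value at 53 h below one at 36 h, which the rule for choosing them required.

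**Figure D3:**
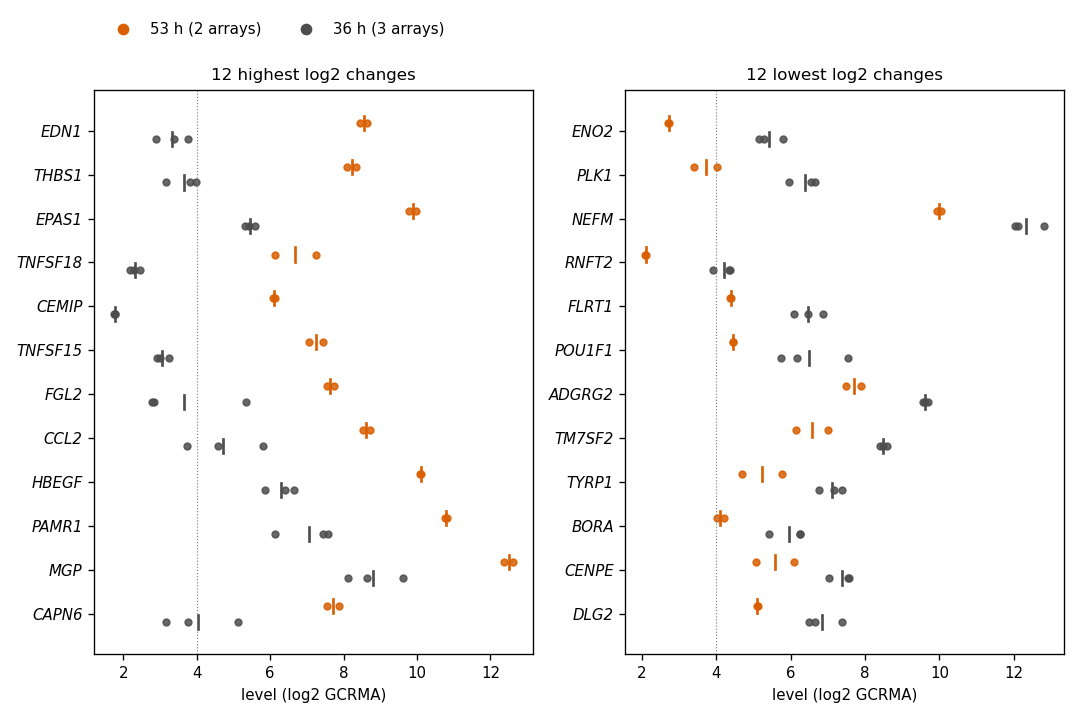
Points are single arrays at 53 h (orange, n = 2) and 36 h (grey, n = 3), with a bar at each mean, for the 12 highest and 12 lowest log2 changes among called genes whose arrays do not overlap. The horizontal axis is the level (log2 GCRMA), and the dotted line marks log2 4, below which EDN1, THBS1, TNFSF18, CEMIP and TNFSF15 lay on all arrays at 36 h.

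PLK1, BORA and CENPE were among the 12 lowest changes. ENO2, the enolase of neurons, read 2.73 and 2.70 at 53 h and 5.78, 5.15 and 5.29 at 36 h, at least 2.65-fold lower (limma adjusted p = 0.000308). NEFM, the medium neurofilament chain, read 10.05 and 9.94 at 53 h and 12.81, 12.11 and 12.03 at 36 h, a fall of 2.32 ± 0.52 on the log2 scale that lost its call without replicate 1 at 53 h (limma adjusted p = 0.0588) and without replicate 2 (0.0901). FLRT1, an adhesion protein of axon guidance, fell by 2.09 ± 0.33, the synaptic scaffold DLG2 by 1.75 ± 0.25 and the adhesion receptor ADGRG2 by 1.92 ± 0.27 on the log2 scale. RNFT2, a RING finger membrane protein, was at least 1.15-fold lower. TM7SF2, a sterol reductase, fell by 1.90 ± 0.42, a call lost without replicate 1 at 53 h (-1.47, limma adjusted p = 0.108), and the melanocyte enzyme TYRP1 by 1.88 ± 0.43, lost without replicate 2 (-1.34, 0.175). POU1F1, a pituitary transcription factor, fell by 2.05 ± 0.62 (limma adjusted p = 0.0444) and lost its call without replicate 1 or replicate 3 at 36 h (0.103 and 0.0754) and without replicate 1 or 2 at 53 h (0.155 and 0.198). Of 20 neural genes tested, 4 were lower (20%, beside 7.23% of all genes), NEFM, NEFL, CNTNAP2 and UCHL1, and 2 were higher (10%, beside 5.37%), GAP43 and L1CAM, the call of L1CAM lost without replicate 2 at 53 h (limma adjusted p = 0.18). None of the 4 falls was called without replicate 1 or without replicate 2 at 53 h, and 2 were called without replicate 2 or without replicate 3 at 36 h.

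Immediate early genes rose. Of 21 AP-1 and immediate early genes tested, 12 were higher at 53 h than at 36 h (57.1%, beside 5.37% of all genes tested), none was lower, and the median log2 change was 1.39. MYC, the growth regulator, read 10.58 and 10.79 at 53 h and 9.14, 9.27 and 9.29 at 36 h, a rise of 1.45 ± 0.10 (limma adjusted p = 1.34e-06). MAFF, a small partner of AP-1 and NRF2 factors, read 10.84 and 10.54 at 53 h and 8.96, 8.74 and 8.74 at 36 h, a rise of 1.88 ± 0.16. ATF3, a stress-induced factor of the same family, rose by 1.67 ± 0.24. KLF4, a factor that restrains proliferation in many epithelia, read under log2 4 on each 36 h array and was at least 2.66-fold higher at 53 h, and was named after its values were seen. The calls of these 4 held without any 1 of the arrays.

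The calls of the other 8 were each lost without at least 1 array. KLF2 and KLF6 lost theirs without replicate 2 at 53 h alone (limma adjusted p = 0.0887 and 0.0798), and FOSL2, JUND, IER5, KLF10, NR4A1 and NR4A2 without arrays at either time. Among members that missed the threshold, replicate 1 at 36 h was high for some. FOS itself read 9.61 and 9.77 at 53 h, against 9.41, 4.68 and 5.14 at 36 h, so that 1 of 3 arrays at 36 h was near the level at 53 h, and its difference of 3.28 ± 1.66 missed the threshold (limma adjusted p = 0.232). FOSB read 6.08 and 5.38 at 53 h and 6.24, 3.15 and 3.63 at 36 h, and JUNB 8.26 and 8.10 at 53 h and 8.22, 6.01 and 5.95 at 36 h. Without replicate 1 at 36 h, FOSB (2.34, limma adjusted p = 0.00969), JUNB (2.20, 0.0297) and JUN (1.28, 0.00199) passed. Averaged over the 21 genes, the level stood at 8.79 and 8.73 at 53 h and 8.11, 6.99 and 7.07 at 36 h. The count of 12 was 15 without replicate 1 at 36 h, 7 without replicate 2 at 36 h and 4 without replicate 2 at 53 h. All genes of this list in the paragraph were named after their values were seen. Feedback inhibitors of receptor kinase signalling, many of them targets of the same signalling, gave 4 higher of 13 (30.8%, beside 5.37% of all genes tested). DUSP5, a phosphatase of ERK, rose by 1.59 ± 0.22 and SPRY2 by 1.23 ± 0.18 on the log2 scale, both calls held without any 1 of the arrays. DUSP1 (2.02 ± 0.50) lost its call without replicate 2 or 3 at 36 h (limma adjusted p = 0.0701 and 0.072) and without replicate 1 or 2 at 53 h (0.0867 and 0.12). SOCS2 (0.70 ± 0.18) lost it without the same arrays (0.0637, 0.0845, 0.148 and 0.0837).

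Of the matrix genes called, all were higher at 53 h, and most members were not called. Over the lists of collagens, glycoproteins and proteoglycans, and matrix enzymes, 31 of 86 tested members were higher at 53 h (36.0%, beside 5.37% of all genes tested), none was called lower, and the median log2 change was 0.59. Among glycoproteins, beside MGP, THBS1 and FGL2, the matricellular CCN1 read 13.47 and 13.66 at 53 h and 12.39, 10.81 and 10.87 at 36 h, a rise of 2.21 ± 0.34 (limma adjusted p = 0.00105). CCN2, or CTGF, read 13.05 and 13.38 at 53 h and 10.52, 10.04 and 10.32 at 36 h, a rise of 2.92 ± 0.59 whose call was lost without replicate 2 at 53 h (2.76, limma adjusted p = 0.0683). Syndecan 4 (SDC4) rose by 1.82 ± 0.27 and ASPN, a small proteoglycan, by 2.07 ± 0.36. The mean of ASPN at 36 h was 3.11, below log2 4, so the size of its rise is not exact. Versican (VCAN) read 10.04 and 10.16 at 53 h, against 10.36, 5.82 and 6.20 at 36 h, and passed with replicate 1 at 36 h left out (4.09, limma adjusted p = 0.000216) but not with it (0.107). Fibronectin (FN1) differed by 0.02 ± 0.09, at 14.51 and 14.43 at 53 h and 14.46, 14.41 and 14.47 at 36 h. CCN1, CCN2, SDC4, ASPN, VCAN and FN1 were named after their values were seen.

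Collagens gave 7 higher of 20. COL13A1, a transmembrane collagen, rose by 1.64 ± 0.24, COL5A3 by 1.63 ± 0.30 and COL6A2 of the beaded filaments by 0.67 ± 0.13 on the log2 scale. Their 3 calls held without any 1 of the arrays. Of 30 enzymes and inhibitors 11 rose. HTRA1, a secreted serine protease, was at least 3.20-fold higher, at 6.20 and 5.15 at 53 h and 3.29, 2.82 and 2.95 at 36 h. LOXL2, which cross-links collagen, rose by 1.78 ± 0.28, and MMP2, a gelatinase named after its values were seen, by 0.94 ± 0.16. Without replicate 2 at 53 h the count over these 3 lists was 16 in place of 31, with 7 glycoproteins, 5 enzymes and 4 collagens, and without any 1 of the others between 21 and 34. The enzymes also fell to 7 without replicate 2 at 36 h and 6 without replicate 1 at 53 h, and the collagens to 4 without replicate 2 or 3 at 36 h and 3 without replicate 1 at 53 h. The laminin LAMA4, of vascular basement membranes, read 9.30 and 8.70 at 53 h and 6.29, 6.48 and 6.91 at 36 h, a rise of 2.44 ± 0.20 (limma adjusted p = 4.43e-06). ZEB1, a repressor of epithelial genes, was at least 1.46-fold higher. Probe sets disagreed in size for COL13A1, LAMA4 and ZEB1, whose averages over all probe sets were 0.61, 0.95 and 0.55.

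Known targets of the fusion moved both ways. Their lists come from earlier knowledge of EWS-FLI1 but, like all lists here, were chosen with earlier results of these data known. The shares called are thus a description and no independent support. Of 12 repressed genes tested, 5 were higher at 53 h (41.7%, beside 5.37% of all genes tested) and none was lower. IGFBP3, a binding protein of insulin-like growth factors, was at least 2.51-fold higher, IER3, an immediate early gene of cell survival, rose by 1.92 ± 0.24 and SPRY1 by 1.70 ± 0.31. DKK1, a Wnt inhibitor, read 11.03 and 10.98 at 53 h and 8.35, 8.51 and 8.84 at 36 h, a rise of 2.43 ± 0.59 whose call was lost without replicate 1 or 2 at 53 h (limma adjusted p = 0.0863 and 0.103), and TGFBR2, at 0.57 ± 0.14, lost its call without replicate 2 or 3 at 36 h (0.0679 and 0.0674) and without replicate 2 at 53 h (0.191). The count of 5 was 3 without that last array. Of 20 activated genes, 5 were lower (25%, beside 7.23% of all genes) and 2 higher (10%, beside 5.37%). PRKCB, a protein kinase C, read 6.88 and 6.53 at 53 h and 8.63, 8.26 and 8.15 at 36 h, a fall of 1.64 ± 0.27, and the transcription factor BCL11B fell by 1.20 ± 0.20.

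VRK1, GLI1 and PPP1R1A were the other 3 of the 5 activated genes that fell. VRK1 fell by 0.64 ± 0.17, a call lost without replicate 2 at 53 h (limma adjusted p = 0.265). GLI1, at -1.32 ± 0.36, lost its call without replicate 2 or 3 at 36 h (0.0989 and 0.0978) and without replicate 1 or 2 at 53 h (0.102 and 0.167), and PPP1R1A, below log2 4 on both arrays at 53 h and at least 1.08-fold lower there, without replicate 1 or 3 at 36 h (0.0792 and 0.0557) and replicate 1 or 2 at 53 h (0.126 and 0.167). These 3, DKK1, TGFBR2 and PRKCB were named because the counts are small. The count of 5 was 3 without replicate 3 at 36 h, 3 without replicate 1 at 53 h and 2 without replicate 2 at 53 h. The 2 activated genes that rose were PAPPA, a protease of IGF-binding proteins, and UPP1, a uridine phosphorylase. PAPPA read 7.71 and 7.90 at 53 h and 6.45, 6.59 and 6.65 at 36 h (1.24 ± 0.17, limma adjusted p = 0.000492), and UPP1 7.79 and 7.77 at 53 h and 6.24, 6.16 and 6.24 at 36 h (1.57 ± 0.24, 0.000797). Both went against the direction that the list's name gives, and both held without any 1 of the arrays.

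Other lists held single genes whose calls did not rest on any 1 array. PMAIP1, the BH3-only protein NOXA, read 10.77 and 10.88 at 53 h and 9.62, 9.61 and 9.78 at 36 h and rose by 1.15 ± 0.11 (limma adjusted p = 2.19e-05). SMAD5 and ID4, of BMP signalling, rose by 1.06 ± 0.16 and 1.03 ± 0.17, the Wnt receptor FZD5 by 1.28 ± 0.24, GAP43, a growth cone protein, by 1.11 ± 0.17, and the glucose transporter SLC2A3 by 1.16 ± 0.20 on the log2 scale. OAS1, an interferon-induced enzyme, was at least 1.87-fold higher. KDR, the receptor for VEGF, read 8.64 and 8.50 at 53 h and 7.14, 6.10 and 6.44 at 36 h, a rise of 2.01 ± 0.31. Of the endothelial marker list, FLT1, under log2 4 on each 36 h array, was also called higher, by at least 1.64-fold (limma adjusted p = 0.0378), a call lost when any 1 of the 5 arrays was left out (limma adjusted p between 0.0554 and 0.227), EMCN (0.52 ± 0.27) and EGFL7 (-0.49 ± 0.33) were not called, and 7 of 11 were below log2 4. Their part in the rise of KDR was not tested. SNRPA, a protein of the U1 splicing particle, fell by 0.86 ± 0.09, the glycolytic enzyme ALDOA by 0.59 ± 0.10, CYC1 of respiratory complex III by 0.55 ± 0.08 and the proteasome subunit PSMB6 by 0.44 ± 0.09. The calls of PMAIP1, SMAD5, ID4, FZD5, GAP43, SLC2A3, OAS1, KDR, SNRPA, ALDOA, CYC1 and PSMB6 held without any 1 of the arrays.

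Among 56 respiratory chain genes, 9 fell (16.1%, beside 7.23% of all genes tested) and none rose, with a median log2 change of -0.16. The arrays of 33 of them did not overlap and were lower at 53 h, where the share of all genes was 26.2%, but CYC1 alone held its call without any 1 of the arrays. The count was 4 without replicate 1 at 53 h, 3 without replicate 2 at 53 h and 2 without replicate 3 at 36 h. Cytosolic ribosomal proteins gave no call in 42, with log2 differences between -0.11 and 0.15. The plot of calls by list sets all lists of at least 9 tested members side by side.

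**Figure D4:**
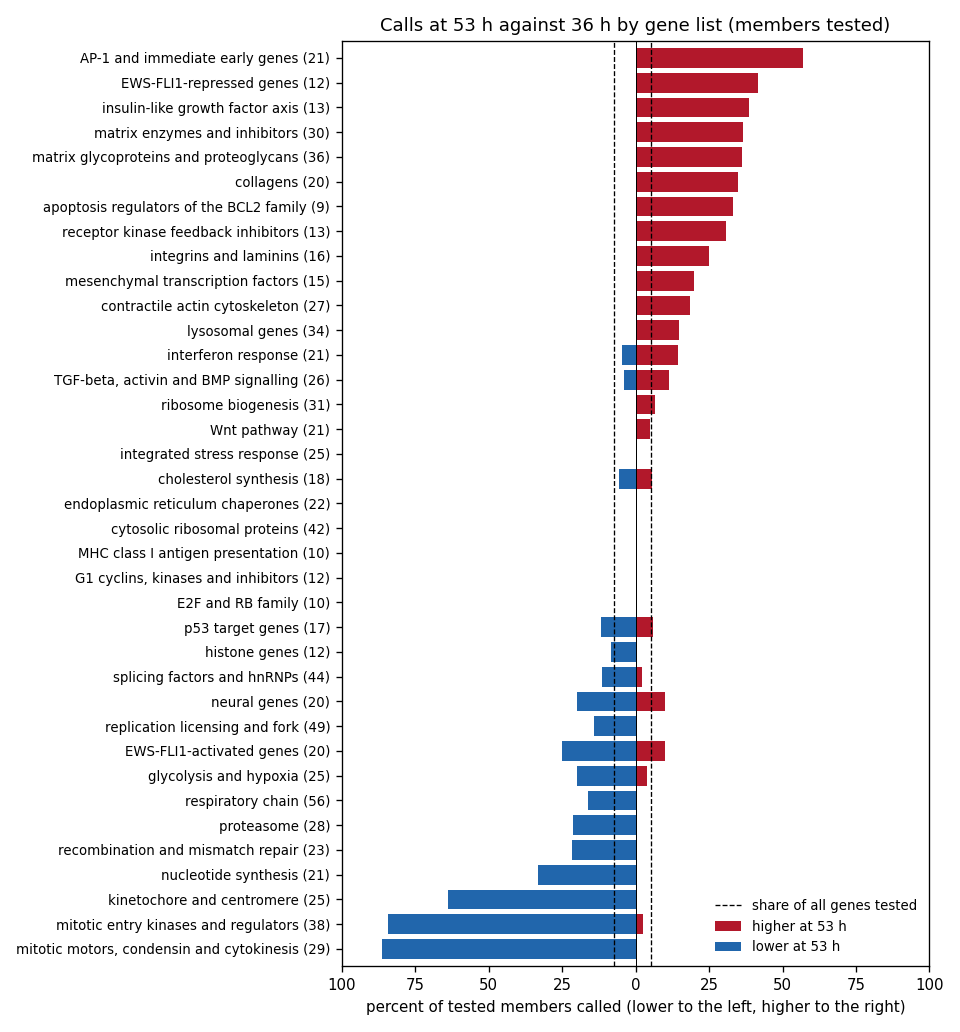
Bars give the percent of the tested members of each list that were called higher (red, to the right) or lower (blue, to the left) at 53 h than at 36 h, with the number tested in brackets, and dashed lines mark 5.37% and 7.23%, the shares of all genes tested. The bars reach 57.1% for immediate early genes and 86.2% for mitotic motors, condensin and cytokinesis.

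For 2 lists the arrays at 36 h gave opposite answers. None of 25 genes of the integrated stress response, which ATF4 drives when translation initiation is held back, was called, and none of 22 endoplasmic reticulum chaperones. The mean over the stress response genes was 10.04 and 10.15 at 53 h, against 8.64, 10.60 and 10.60 at 36 h, so that both 53 h arrays lay between replicate 1 and the other replicates at 36 h. The chaperones averaged 10.55 and 10.65 at 53 h and 9.42, 11.07 and 10.94 at 36 h. DDIT3, or CHOP, read 9.16 and 8.99 at 53 h and 7.09, 10.27 and 10.53 at 36 h, and HSPA5, or BiP, 14.07 and 14.31 at 53 h and 12.69, 14.62 and 14.59 at 36 h. Without replicate 1 at 36 h, 13 stress response genes and 7 chaperones were lower at 53 h, DDIT3 by 1.33 ± 0.18 on the log2 scale (limma adjusted p = 0.000396), ASNS, the asparagine synthetase, by 0.96 ± 0.19 (0.00529) and SDF2L1 by 1.19 ± 0.22 (0.00279). With all arrays the differences were -0.23 ± 0.70 for DDIT3, 0.05 ± 0.64 for ASNS and 0.18 ± 0.86 for SDF2L1. These 4 genes were named after their values were seen.

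Over the whole course, more of the called genes had their extreme mean at 72 h than at 53 h. Of the 392 genes called higher, 21 had their highest mean at 0 h, 109 had it at 53 h, 194 at 72 h and 68 at 96 h. Of the 528 called lower, 20 had their lowest mean at 0 h and 1 at 18 h, while 89 had it at 53 h, 375 at 72 h and 43 at 96 h. Among genes called higher, 49.5% were highest at 72 h and 27.8% at 53 h, beside 14.5% and 11.7% of all genes tested. Among those called lower, 71% were lowest at 72 h and 16.9% at 53 h, beside 26.2% and 11.2% of all genes tested. Being called at 53 h against 36 h favours 53 h in these counts, and no test was made of them. Of the 73 mitotic genes called lower, 67 (91.8%) were lowest at 72 h and 6 (8.22%) at 53 h. Of the 12 immediate early genes called higher, 8 (66.7%) were highest at 53 h, 3 (25%) at 72 h and 1 at 0 h. The mean over mitotic entry genes was 10.15 before doxycycline and 10.02 after 18 h of it, then 8.57 after 36 h, 7.50 after 53 h, 6.86 after 72 h and 8.82 after 96 h, as the plot of list means by time shows.

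**Figure D5:**
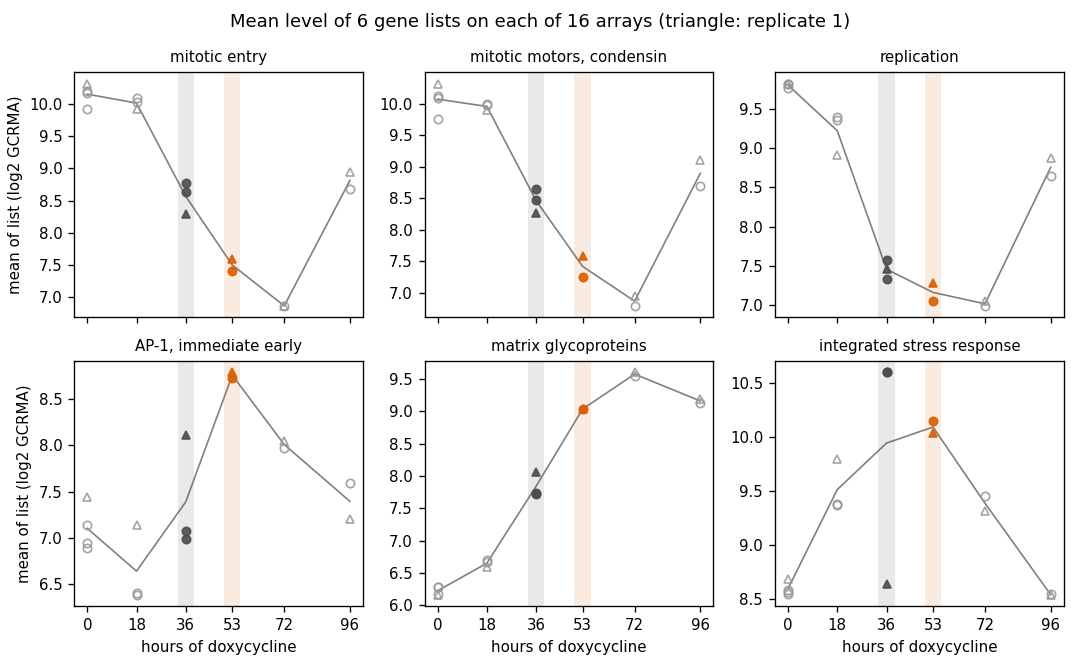
Points are the mean log2 level of the tested members of 6 gene lists on each of the 16 arrays against hours of doxycycline, with a line through the means of each time, orange for 53 h, dark grey for 36 h and triangles for replicate 1. The mean of immediate early genes is 8.79 and 8.73 at 53 h, above all 3 arrays at 36 h, and the triangle at 36 h lies apart for immediate early and integrated stress response genes.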

How the data were processed

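Affymetrix arrays of 22277 probe sets were normalised by the authors with GCRMA, per the submitters' processing notes, and their deposited values are log2 intensities. Its version and settings were not given in the labels used here. Probe sets with 1 gene symbol in the platform annotation (19064) were kept, 1043 with several and 2108 with none were not, and each gene took its brightest probe set. Of 11963 genes, 7304 reached log2 4 on at least 2 arrays. limma 3.58.1 in R 4.3.3 fitted 1 mean per time over all 16 arrays (10 residual degrees of freedom), with lmFit, contrasts and eBayes with a trend, and p-values were adjusted by Benjamini-Hochberg at 0.05 over all genes. The contrasts were 53 h less 36 h, and that step less the one of 36 h less 18 h. The fit was tested on simulated data. The number of arrays limits the precision. Named were the E2F and RB family with EWSR1 and FLI1, the 12 highest and 12 lowest changes without overlap, the 3 smallest adjusted p of each list, and the 5 highest and 5 lowest differences of steps. The members and the 40 gene lists were chosen with earlier results of these data known. The labels state no pairing, so the main fit held no block for replicate number. Same-numbered arrays deviated together by correlations of 0.073 and 0.077 over 2 pairs. These cannot decide on pairing, since the deviations of 2 arrays at 53 h mirror each other. Fits with such a block are among the settings below. Promoters come from RefSeq (GRCh38.p14).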

Additional observations from a re-analysis of the deposited data

Results flagged for a closer look

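For 10 genes the step of 53 h less 36 h differed from the step of 36 h less 18 h by the widest margins in limma's test of the difference, 5 in each direction. EDN1 (5.36 on the log2 scale, adjusted p = 0.000324), THBS1 (5.30), CEMIP (4.36), TNFSF18 (4.26) and B3GALT2 (4.24) stayed low until 36 h and were higher at 53 h. Except for THBS1 at 18 h, the means of these 5 at 18 h and 36 h were below log2 4, so their differences rest on dim values and have no exact size or order. B3GALT2, a galactosyltransferase, averaged 3.77 at 18 h, 3.02 at 36 h and 6.52 at 53 h.

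The other 5 rose before 36 h and did not rise by as much after it. HPGD, MAP2 and WIPI1 had means below log2 4 at 18 h, so the size of their differences is not exact either. CXCL14, a chemokine, averaged 5.35 at 18 h, 9.53 at 36 h and 8.84 at 53 h, a difference of steps of -4.86 (adjusted p = 0.00157). MAP2, a neuronal microtubule protein, averaged 2.46, 6.03 and 5.55 at the same times (-4.04), and FLRT1 averaged 4.56, 6.48 and 4.38 (-4.01). The difference for HPGD, which inactivates prostaglandins, was -4.46 (adjusted p = 0.0252). It lost its call without replicate 2 at 53 h (0.0834), replicate 2 at 18 h (0.0544) or replicate 3 at 18 h (0.0523), and its 36 h arrays read 8.65, 5.06 and 5.56. The difference for WIPI1, an autophagy protein, was -3.85 (adjusted p = 0.0149), lost without replicate 2 (0.0865) or replicate 3 (0.0696) at 36 h, where it read 6.60, 8.78 and 8.65.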

How the results depend on the processing

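The count of 920 genes called (392 higher, 528 lower) and that of 985 differences of steps (557 higher, 428 lower) moved by over 1.5 times under several settings. Leaving out 1 array gave 321 to 1155 calls (178 to 456 higher, 143 to 699 lower) and 314 to 1611 differences of steps (217 to 848 higher, 97 to 763 lower). Without probe sets open to cross-hybridisation there were 562 calls, 294 of them lower, and 597 differences of steps (342 higher, 255 lower). Genes with no other probe set are absent from that fit, and of the named genes that remained 7 lost the call. The 5 arrays alone gave 496 calls, 207 lower, and the arrays without those at 0 h gave 797, 424 lower. Array weights gave 1711 calls (701 higher, 1010 lower) and 3095 differences of steps (1444 higher, 1651 lower). Averaging replicates 2 and 3 at 36 h gave 600 calls, 323 lower, and 372 differences of steps (255 higher, 117 lower). Averaging them also at 0 h and 18 h gave 388 calls (197 higher, 191 lower) and 105 differences of steps (82 higher, 23 lower). A change of at least 1 (log2) left 334 calls (220 higher, 114 lower) and 585 differences of steps (316 higher, 269 lower). With the ACTB 3' less 5' signal as a covariate there were 871 calls, and 248 differences of steps were lower. In that fit 70 mitotic genes were called lower and 30 matrix genes higher, while 21 named genes lost the call and 1 gained it. The replicate number as a block gave 1088 calls over all 16 arrays, 71 of them falls of mitotic genes, with 692 differences of steps that were lower. Over the 5 arrays it gave 28 calls (27 higher, 1 lower), and none of the 73 falls of mitotic genes was called. That last fit leaves few residual degrees of freedom, and replicate 3, which exists at 36 h but not at 53 h, takes a block term of its own. The 5-array settings give no difference of steps. The causes were not tested. Without replicate 1 at 36 h the sign turned for TRIB3 (-1.12, limma adjusted p = 0.0492), HSPA5 (-0.41, 0.0201), ASNS (-0.96, 0.00529) and SDF2L1 (-1.19, 0.00279), while the highest values without another array were 0.84, 0.55, 0.59 and 0.87. Over all single genes named and all settings, 3763 values stayed on their side of the threshold, 722 lost the call and 44 gained it. The 3763 include changes of sign where neither value passed the threshold, as for HPGD, which ran from -1.13 to 0.66.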
